A study of Rattus norvegicus with 10 samples.

Results

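The cell cycle and DNA replication genes described here are 30 genes of the rat: 6 cyclins, 6 cyclin-dependent kinases and their activating phosphatase, 2 kinase inhibitors, 9 genes of DNA replication and nucleotide supply, and 7 genes of mitosis and chromatin. Their members were all probe sets whose only gene symbol in the platform's probe table was on that list, which gave 53 probe sets of the 8740 on the array that are not controls, and 30 genes of 4736 with such a probe set. Of these, 45 were bright enough to be tested and 8 were too dim, and the 45 covered all 30 genes. For 18 genes 1 probe set was tested and for 12 genes several were, so probe sets of 1 gene are not independent.

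Sertoli cells of 20-day-old rats were kept in culture and given follicle-stimulating hormone (FSH) for 2, 4, 8 or 24 h, and untreated cultures at 0 h were the control. Total RNA was measured on 10 Affymetrix arrays, 2 for each of the 5 groups, numbered replicate 1 and replicate 2. The labels name no strain, no FSH dose and no untreated culture later than 0 h, so the effect of FSH and that of time in culture cannot be told apart. Whether the replicates were separate cultures is not stated, and p-values then reflect only how far these arrays differ from each other, which may be technical. One 2 h array carries no number and was treated as replicate 1, since the other 2 h array is labelled as the second.

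Sertoli cells are the somatic cells of the seminiferous tubule that nurse the germ cells. They divide in fetal and early postnatal life and stop around puberty, and FSH is one of the hormones that drive their division while it lasts. In the cell cycle, D-type cyclins with Cdk4 and cyclin E with Cdk2 carry a cell into DNA synthesis. The Mcm helicase, the primases and Pcna take part in copying the DNA, and cyclin B with Cdk1 starts mitosis. Cdkn1a (p21) inhibits cyclin-dependent kinases, and Cdkn2b (p15) inhibits Cdk4.

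The measured value is the intensity of a probe set after every array was scaled to the same 75th percentile of 107.7. Changes are differences of log2 intensity with their standard error (SE) from limma, with n = 2 arrays per time, and values under a floor of 13.46 were set to it before log2 was taken. A probe set was called at a Benjamini-Hochberg adjusted p under 0.05 over all 4439 probe sets tested. Intensities of different probe sets are not comparable with each other.

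Defining Sertoli genes were measured above the floor on every array: the FSH receptor Fshr at 56.74 to 195, Amh at 151.8 to 349.8, Wt1 at 117 to 342.7 and Clu at 6791 to 13810. The arrays of the 2 replicate numbers also differed in features outside the cell cycle. Summed germ cell markers ran from 352.8 to 1106 in replicate 1 against 2613 to 3008 in replicate 2, with no overlap. The largest parts of the replicate 2 sums were Ldhc, at 1009 to 1652, and Hspa2, at 448.6 to 578.6. In replicate 1 Ldhc was at 58.61 to 570.5 and Hspa2 at 48.6 to 162.6. Sycp3, Prm2 and Acr overlapped between the numbers, so the sum does not describe the list as a whole. The values of these lists are given again beside the results they move with.

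The first question was whether FSH changed the cell cycle genes. No member probe set was called against 0 h at any time. The count was 0 of 45 at 2 h, where 0.676% of all tested probe sets were called, at 4 h (0.856% of all), at 8 h (0.766% of all) and at 24 h (0.0% of all). At an unadjusted p under 0.05 limma gave 2, 2, 4 and 1 of the 45 member probe sets at those times. The same threshold gave 203, 344, 413 and 204 of all 4439 tested probe sets. Between successive times the count was also 0, against 0.0% of all probe sets from 2 to 4 h, 0.0% from 4 to 8 h and 0.225% from 8 to 24 h. The F test for a change at any time called 0 of 45 members and 0.991% of all probe sets. At an unadjusted p under 0.05 it gave 3 of the 45 members, against 328 of all 4439 probe sets.

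Arrays with the same replicate number deviated together, so the fit was repeated with the replicate number as a block. The block raised the share of all probe sets called to 1.22% at 2 h, 2.95% at 4 h, 2.68% at 8 h and 0.0901% at 24 h. It gave 0.0% from 2 to 4 h, 0.0901% from 4 to 8 h, 1.15% from 8 to 24 h and 3.22% in the F test. Still 0 of 45 member probe sets were called in each of these comparisons. An unadjusted p under 0.05 was reached by 3, 3, 4 and 3 of the 45 at 2, 4, 8 and 24 h. In the F test 5 reached it. Of 4439 tested probe sets, 541 reached it at 4 h, 690 at 8 h, 411 at 24 h and 594 in the F test. The share of members was below that of all tested probe sets in each of these, and also at 2 h.

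The intervals limit what these counts show. The 95% interval of a member's change had a median half-width of 1.25 on the log2 scale, which is 2.37-fold, and with the block 0.887, which is 1.85-fold. It lay wholly within a 2-fold change for 4, 3, 1 and 4 of the 45 probe sets at 2, 4, 8 and 24 h, and with the block for 17, 17, 11 and 13. The half-widths of single members ran from 0.659 to 3.03, and with the block from 0.584 to 1.42, so the change that 2 arrays per group could show differed between members.

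The median member differed from 0 h by -0.04 at 2 h, -0.03 at 4 h, -0.13 at 8 h and -0.20 at 24 h, where the median of all tested probe sets was -0.02, -0.03, -0.02 and 0.02. At 24 h 35 of the 45 lay below 0. Without the 24 h array of replicate 1 it was 22 of 45, with a median of 0.01. Without the 24 h array of replicate 2 it was 35 of 45, with a median of -0.31. Both fits keep both controls, so the difference between the replicate numbers enters these values, and they do not show which array the tilt rests on. On the 24 h array of replicate 1 the summed peritubular myoid markers were 2037, against 204 to 654 on the other replicate 1 arrays. Its summed fibroblast markers were 1004, against 313.8 to 441.4, and its summed germ cell markers 352.8, against 650.7 to 1106. Their part in the 24 h values was not tested. Both FSH arrays lay above both control arrays for 5 member probe sets at 2 h (11.1% of members, against 11.8% of all), 5 at 4 h (11.1% against 15.0%), 6 at 8 h (13.3% against 17.7%) and 1 at 24 h (2.22% against 15.8%). Both lay below both controls for 4 at 2 h (8.89% against 12.3%), 5 at 4 h (11.1% against 13.0%), 6 at 8 h (13.3% against 17.2%) and 6 at 24 h (13.3% against 13.3%). These shares were near or below those of all probe sets.

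**Figure D1:**
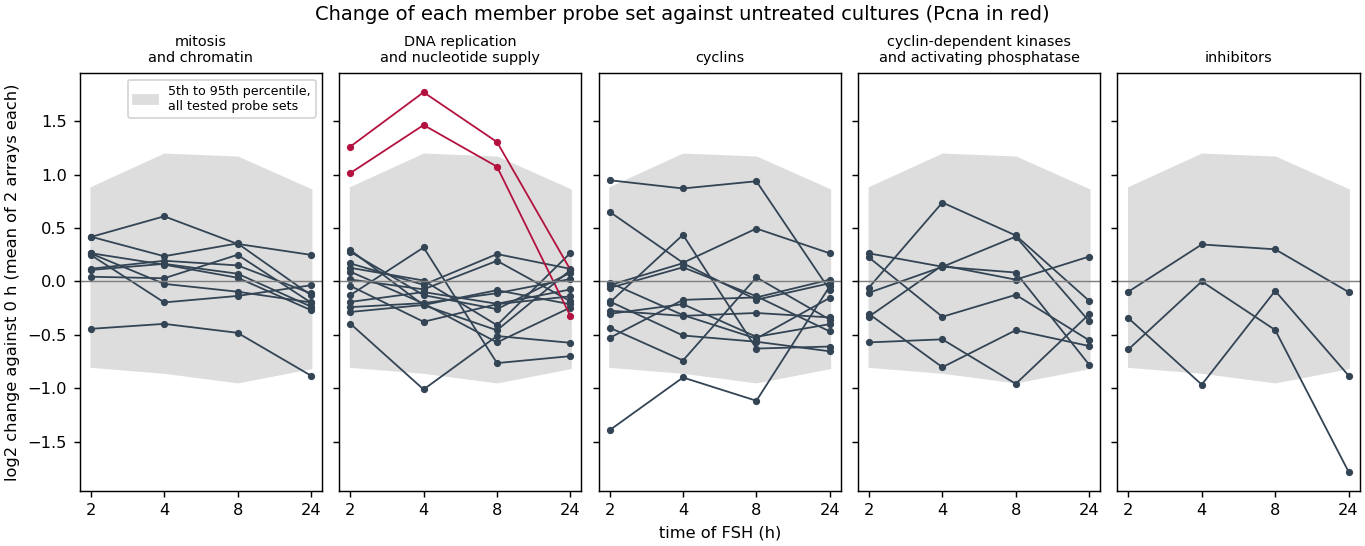
Log2 change of each of the 45 tested member probe sets against 0 h (y axis) at 2, 4, 8 and 24 h of FSH (x axis, steps not to scale), in a panel per role, with the 5th to 95th percentile of all tested probe sets in grey. The 2 Pcna probe sets, in red, lie above the grey band at 2 h and 4 h and return to near 0 at 24 h, and most other members lie within it.

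Pcna, the sliding clamp that holds DNA polymerase on its template, had the largest positive difference from 0 h among the members at 2, 4 and 8 h. The probe set M24604_at read 221 and 701.7 in the replicate 1 and 2 controls, 1142 and 780.7 at 2 h, 1773 and 1020 at 4 h, 1019 and 930.1 at 8 h, and 337.6 and 534.1 at 24 h. Both arrays at 2, 4 and 8 h were above both controls, and both 24 h arrays lay between the controls. Its log2 change was 1.26 at 2 h, 1.77 ± 0.55 (SE) at 4 h, 1.31 at 8 h and 0.11 at 24 h. The adjusted p at 4 h was 0.298 in limma, and 0.133 with the replicate block, so the difference did not pass the test.

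The second Pcna probe set, M24604_g_at, overlaps the first and followed the same course. It read 212.9 and 323.7 in the controls, 702.8 and 399.8 at 2 h, 998.6 and 525.6 at 4 h, 618.6 and 494.3 at 8 h, and 215.6 and 203.9 at 24 h. Its log2 change at 4 h was 1.46 ± 0.44 (SE), with an adjusted p of 0.254 in limma and 0.077 with the block. The size depended on the replicate: for M24604_at the difference from 0 h at 4 h was 3.0 within replicate 1 and 0.54 within replicate 2. Without control replicate 1 the 4 h change of M24604_at was 0.94, and without control replicate 2 it was 2.61.

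The D-type cyclins, which bind Cdk4 early in the cycle, gave the largest differences among cyclins. Ccnd2 probe set D16308_at read 38.26 and 64.88 in the controls, 5.45 and 26.71 at 2 h, 23.81 and 29.95 at 4 h, 6.26 and 39.15 at 8 h, and 71.37 and 32.71 at 24 h. Both arrays at 2 h and at 4 h were below both controls, and several lay near or under the floor. The log2 change at 2 h was -1.39 ± 0.68 (SE), with an adjusted p of 0.999 in limma. The other Ccnd2 probe set, rc_AA899106_at, differed from 0 h by -0.25 at 2 h and 0.21 at 4 h within replicate 1, and by -0.81 and -0.55 within replicate 2.

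Ccnd3 was measured by 3 tested probe sets. U49935mRNA_s_at read 39.13 and 15.2 in the controls, 53.02 and 41.74 at 2 h, 74.1 and 26.83 at 4 h, 50.91 and 42.9 at 8 h, and 32 and 16.6 at 24 h. Its difference from 0 h at 2 h was 0.95 ± 0.65 (SE), above the 95th percentile of 0.88 of all probe sets, and did not pass limma's test (adjusted p = 0.999). The other Ccnd3 probe sets were at -0.20 (D16309_at) and -0.06 (D16309_g_at) at 2 h and at -0.63 and -0.14 at 8 h, so the probe sets of Ccnd3 did not share a direction. Ccnd1, Ccnb1, Ccne1, and Ccng1, a cyclin induced by p53, did not pass it either: over all cyclins the changes ran from -1.39 to 0.95 at 2 h and from -0.65 to 0.26 at 24 h.

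Among the kinases the largest difference from 0 h was that of Cdk5, a relative of the cell cycle kinases best known from neurons. It read 155.5 and 85.32 in the controls, 58.97 and 101.9 at 2 h, 76.87 and 81.38 at 4 h, 70.31 and 49.92 at 8 h, and 107.9 and 80.39 at 24 h. Both arrays were below both controls at 4 h and 8 h, and its change at 8 h was -0.96 ± 0.42 (SE; limma adjusted p = 0.519). The changes of the 7 kinase and Cdc25b probe sets ran from -0.96 to 0.43 at 8 h, and 0 of 7 were called.

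The inhibitors Cdkn1a and Cdkn2b were the role with the lowest median at 24 h, -0.88 over 3 probe sets, and none was called. Cdkn1a probe set L41275cds_s_at read 155.9 and 34.84 in the controls, 84.04 and 26.71 at 2 h, 110.1 and 49.29 at 4 h, 83.77 and 34.5 at 8 h, and 25.29 and 18.13 at 24 h. Both 24 h arrays lay below both controls. Its change at 24 h was -1.78 ± 0.82 (SE), with an adjusted p of 0.996 in limma and 0.201 with the block. The other Cdkn1a probe set, U24174_at, differed from 0 h by -1.49 within replicate 1 and by 1.29 within replicate 2 at 24 h. Cdkn2b read 42.92 and 47.19 in the controls, 42.12 and 29.85 at 2 h, 39.41 and 8.75 at 4 h, 42.25 and 42.41 at 8 h, and 32.22 and 18.51 at 24 h. Both arrays were below both controls at each of these times, at 8 h by a narrow margin. Its change was -0.97 ± 0.58 (SE) at 4 h and -0.88 ± 0.58 at 24 h (limma adjusted p = 0.89 and 0.996).

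Of the replication genes other than Pcna, Prim2, the large primase subunit, had the largest difference from 0 h. Its probe set AJ011607_g_at read 61.89 and 130.2 in the controls and 25.14 and 78.75 at 4 h, which overlap, and the change was -1.01 ± 0.74 (SE; limma adjusted p = 0.986). Pola2, a subunit of DNA polymerase alpha, read 132.6 and 119.5 in the controls and 71.98 and 76.22 at 8 h. Both 8 h arrays were below both controls, and the change was -0.77 ± 0.30 (SE; limma adjusted p = 0.437). Fen1, the flap endonuclease that trims Okazaki fragments, read 146.8 and 139.5 in the controls and 93.36 and 99.35 at 8 h. Its change was -0.57 ± 0.29 (SE; limma adjusted p = 0.627), again with both arrays below both controls.

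For mitosis and chromatin the changes ran from -0.44 to 0.42 at 2 h, from -0.40 to 0.61 at 4 h, from -0.48 to 0.36 at 8 h and from -0.88 to 0.25 at 24 h. The kinase Plk1 lay above both controls on both arrays at 2, 4 and 8 h, with 135.6 and 97.68 in the controls and 170.7 and 180.7 at 4 h (change 0.61 ± 0.34, SE; limma adjusted p = 0.862). The lowest change at 24 h was that of D14045_s_at of Top2a, the topoisomerase that untangles sister chromosomes. It read 26.99 and 64.26 in the controls and 17.37 and 29.35 at 24 h.

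The second comparison was between the replicate numbers, with time as a covariate. Here 16 of the 45 member probe sets were called by limma. The count fell to 10 without either 8 h array, 7 higher and 3 lower. When dim probe sets were kept in the test it fell to 6, all of them higher, so that the 4 lower calls were lost. Replicate 2 was higher for 12 probe sets of 9 genes, which is 26.7% of members against 6.53% of all tested probe sets. Of these 12, those of Hmgb2, Bub1b, Cdk1 and Ccnb1 had a replicate 1 mean under the filter of 31.97 and passed it only through replicate 2, where they are high, so these 4 had to differ and the shares are a description. The same held for 63 of the 290 probe sets called higher over the whole array. It was lower for 4 probe sets of 3 genes, which is 8.89% of members against 8.65% of all. The median member difference was 0.45 on the log2 scale, and that of all probe sets was -0.05. Replicate 2 was higher at each of the 5 times for 16 member probe sets (35.6%, against 11.0% of all) and lower at each for 6 (13.3%, against 15.2%).

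By role, all 9 mitosis and chromatin probe sets lay above 0 and 5 were called higher. Several of the 9 are of Top2a, and 2027 of all 4439 tested probe sets lay above 0. Of 14 replication probe sets 12 lay above 0 and 5 were called higher, all of Mcm6 and Prim2. Of 12 cyclin probe sets 1 was called higher and 1 lower, and of 7 kinase and phosphatase probe sets also 1 and 1. Of 3 inhibitor probe sets 0 were called higher and 2 lower. The higher calls of Hmgb2 and Bub1b (mitosis and chromatin), Ccnb1 (cyclins) and Cdk1 (kinases) are those of probe sets that passed the filter only through replicate 2. The roles therefore cannot be ranked by these counts.

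**Figure D2:**
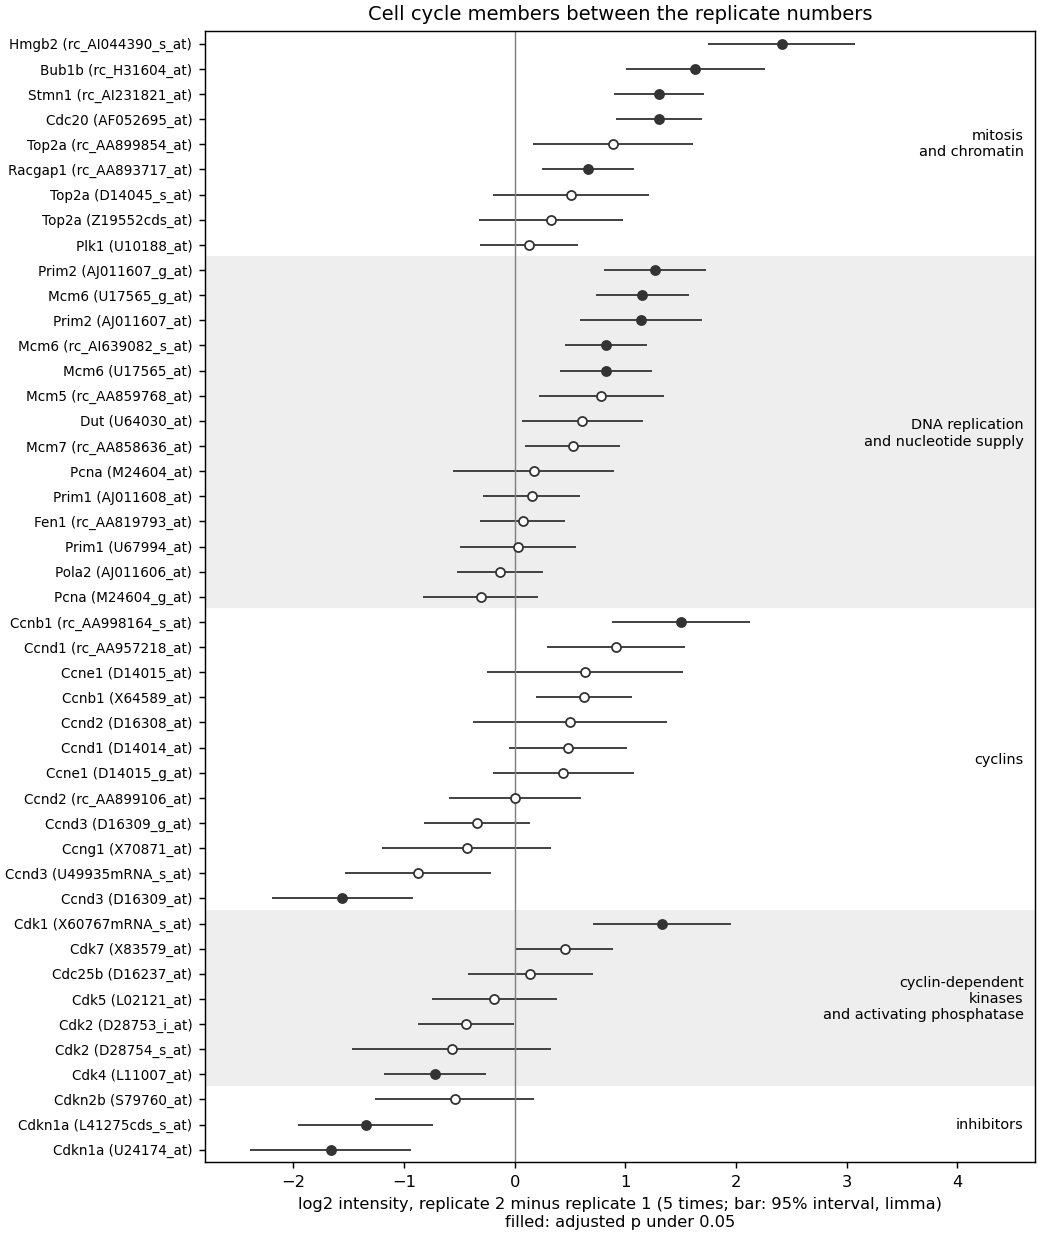
Log2 difference of replicate 2 from replicate 1 over the 5 times (x axis) for the 45 tested member probe sets (y axis, grouped by role), with limma's 95% interval, filled where the adjusted p was under 0.05. The 9 mitosis and chromatin probe sets all lie to the right of 0, up to 2.42 for Hmgb2, and both Cdkn1a probe sets lie to the left, at -1.66 and -1.35.

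Several markers and quality measures moved with the replicate number. Of 11 tested germ cell marker genes 7 were higher in replicate 2 and 0 lower, with a median difference of 1.65 on the log2 scale. Over all tested probe sets 6.53% were higher and 8.65% lower. Of the 7, Sycp2, Ddx4 and Pdha2 had a replicate 1 mean under the filter of 31.97. They passed it only through replicate 2, so these had to differ and the count is a description. Of late germ cell genes in the list, Tnp2, Odf1 and Akap4 were under the floor on all 10 arrays. Prm2, at 17 to 59.6, and Acr, at 18.24 to 66.98, were above it on all 10 and were not called. All 5 tested fibroblast marker genes were higher, with a median of 1.54, and their summed level ran from 313.8 to 1004 in replicate 1 against 1054 to 1580 in replicate 2. Of 12 tested Sertoli marker genes 4 were lower and 0 higher. Among the 4, Inha also moved with time of FSH, from 286.8 and 141 in the controls to 2944 and 1456 at 8 h. Inha, Krt18, Crem and Star count among the tested marker genes but were left out of the summed levels. The Sertoli sum ran from 14900 to 18700 in replicate 1 against 12220 to 14380 in replicate 2. Most of that sum is Clu, at 9259 to 13810 in replicate 1 and 6791 to 9813 in replicate 2. Clu was not called (limma adjusted p = 0.0904), so the sum does not describe the list as a whole. No tested gene of 3 peritubular myoid, 1 endothelial and 1 macrophage marker was called between the replicate numbers. Of 2 Leydig markers Star was higher (0.72, limma adjusted p = 0.0224) and Lhcgr, at -0.36, was not called. Star also moved with time of FSH, from 34.14 and 63.37 in the controls to 514.6 and 774.8 at 4 h, so its call does not describe Leydig cells alone. The ratio of 3' to 5' signal, which rises as RNA is degraded or copied incompletely, ran for beta-actin from 0.928 to 1.17 in replicate 1 against 1.48 to 1.76 in replicate 2. For GAPDH it ran from 0.735 to 0.904 against 0.914 to 1.06. In bulk RNA, more cells of a type and more RNA per cell cannot be told apart. The part of these markers and ratios in the differences of the cell cycle genes was not tested.

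**Figure D3:**
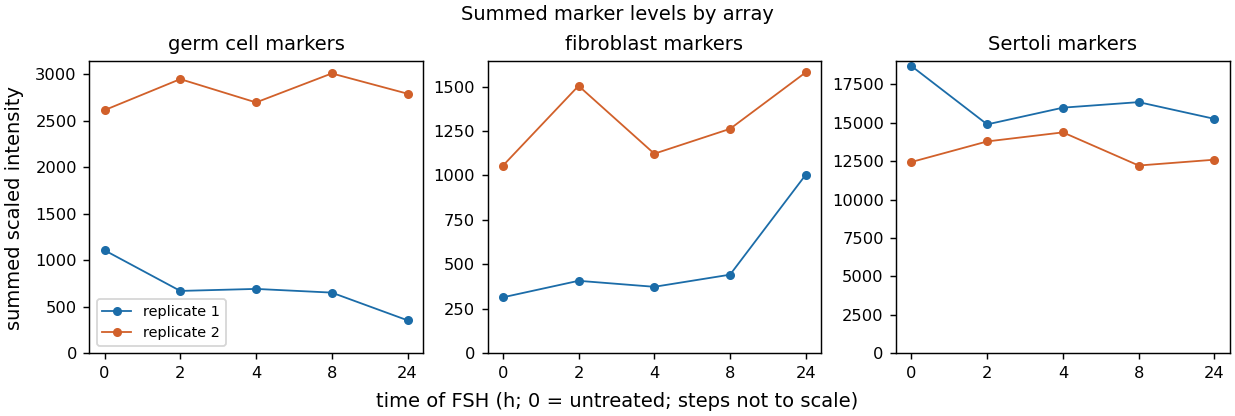
Summed scaled intensity of the germ cell, fibroblast and Sertoli marker lists (y axis, from 0) on each array by time of FSH (x axis, steps not to scale), with replicate 1 in blue and replicate 2 in orange. The germ cell sums of replicate 2 (2613 to 3008) lie above all those of replicate 1 (352.8 to 1106), and the fibroblast sums likewise. Ldhc and Hspa2 are the largest parts of the replicate 2 germ cell sums. The Sertoli sums, most of which are Clu, lie lower in replicate 2 than in replicate 1.

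Promoters of 6 genes are shown because their genes were called higher in replicate 2 and hold motifs of cell cycle promoters. They are RefSeq sequences of the GRCr8 build, the 150 bases before the annotated start, 5' to 3' on the gene's strand. Capitals mark the motifs: E2F (TTTCCCGC, TTTGGCGC, TTTCGCGC or TTTGCCGC), the cell cycle homology region, or CHR (TTTGAA), and CCAAT, each searched on both strands and free to overlap.
Cdk1: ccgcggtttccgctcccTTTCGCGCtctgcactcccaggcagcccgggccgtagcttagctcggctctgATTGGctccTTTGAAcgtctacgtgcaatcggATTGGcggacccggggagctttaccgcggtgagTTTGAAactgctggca
Cdc20: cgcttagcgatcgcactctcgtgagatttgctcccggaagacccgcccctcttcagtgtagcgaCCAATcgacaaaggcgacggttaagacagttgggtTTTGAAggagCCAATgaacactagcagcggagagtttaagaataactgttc
Hmgb2: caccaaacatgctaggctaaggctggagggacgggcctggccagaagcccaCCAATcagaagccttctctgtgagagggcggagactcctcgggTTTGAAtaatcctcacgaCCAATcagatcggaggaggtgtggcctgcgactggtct
Mcm6: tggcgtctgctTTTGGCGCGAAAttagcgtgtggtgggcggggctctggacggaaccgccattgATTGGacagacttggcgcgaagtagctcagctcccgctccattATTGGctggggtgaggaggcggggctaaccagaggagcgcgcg
Stmn1: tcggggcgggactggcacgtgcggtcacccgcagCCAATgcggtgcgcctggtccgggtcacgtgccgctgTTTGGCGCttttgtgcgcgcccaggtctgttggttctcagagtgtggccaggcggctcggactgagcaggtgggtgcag
Ccnb1: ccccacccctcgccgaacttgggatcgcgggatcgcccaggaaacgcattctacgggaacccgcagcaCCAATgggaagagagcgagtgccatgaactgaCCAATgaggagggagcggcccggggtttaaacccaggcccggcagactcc
These lie at chr20:19265143-19265292 (plus strand), chr5:137255800-137255949 (minus), chr16:37723951-37724100 (minus), chr13:42404353-42404502 (minus), chr5:151965029-151965178 (plus) and chr2:33655226-33655375 (minus). In Mcm6 the 2 E2F matches overlap.

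RefSeq gave a promoter for 27 of the 30 genes (28 promoters), and none was used for Ccnd1, Ccnd2 and Racgap1. An E2F match was in the promoters of 5 members (Cdk1, Mcm5, Mcm6, Mcm7 and Stmn1; 17.9% of member promoters), against 1.14% of all 33469 promoters. A CHR match was in 4 (Cdc20, Cdk1, Hmgb2 and Top2a; 14.3% against 9.13%). A CCAAT match was in 14 (50% against 23.5%), and more than 1 in 8 (28.6% against 5.09%). Of the 8 genes called higher in replicate 2 that have a promoter, 3 held E2F, 3 CHR and 6 CCAAT. Among these 8, the called probe sets of Bub1b, Ccnb1, Cdk1 and Hmgb2 passed the filter only through replicate 2. Of the 20 promoters of the other members 2 held E2F, 1 CHR and 8 CCAAT. Whether the motifs go with the replicate difference was not tested. The windows of Pcna and Cdkn1a held no match, which says only that these letters are not in these 150 bases. A match is a description of sequence, not a site shown to be used.

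Mitosis and chromatin genes were the role with the highest median difference, 0.89 over 9 probe sets, among which those of Hmgb2 and Bub1b passed the filter only through replicate 2. Hmgb2, a chromatin protein abundant in dividing cells and in germ cells, read 16.69, 31.22, 18.68, 8.55 and 7.92 at 0, 2, 4, 8 and 24 h in replicate 1, and 102.2, 78.56, 88.48, 110.9 and 96.5 in replicate 2. All replicate 2 arrays were above all replicate 1 arrays, and the 8 h and 24 h arrays of replicate 1 were under the floor. The difference was 2.42 ± 0.30 on the log2 scale (SE, limma adjusted p = 0.00137), higher in replicate 2 at 5 of 5 times. Its size depends on the floor: it was 1.77 where the floor was the scaled percentile over 4 in place of 8, and 2.70 where it was that over 16, and it was called under both.

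Cdc20, which activates the complex that ends metaphase, read 144, 133.7, 143, 155 and 106.7 in replicate 1 and 285.6, 362.8, 376.3, 326.7 and 329.9 in replicate 2. The groups did not overlap, and the difference was 1.31 ± 0.17 (SE, 2.47-fold, limma adjusted p = 0.00189). Stmn1, stathmin, which takes microtubules apart, read 182, 307.6, 262.4, 292.9 and 166.8 in replicate 1 and 587.8, 621.8, 565.5, 598.2 and 536.2 in replicate 2. The difference was 1.31 ± 0.18 (SE, limma adjusted p = 0.0024), again without overlap.

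Bub1b, the checkpoint kinase BubR1, read 20.81, 26.66, 18.88, 22.32 and 14.63 in replicate 1 and 59.19, 49.1, 67.96, 78 and 63.98 in replicate 2. The difference was 1.63 ± 0.28 (SE, limma adjusted p = 0.00533), and the groups did not overlap. Racgap1, which helps divide the cell after mitosis, read 91.91, 137.4, 74.61, 93.89 and 100.5 in replicate 1 and 169.9, 160.4, 159.4, 137.8 and 147.8 in replicate 2. Its difference of 0.66 ± 0.19 (SE, limma adjusted p = 0.0416) stood close to the threshold, and the lowest replicate 2 array was barely above the highest replicate 1 array. Top2a was not called: for rc_AA899854_at the replicate 2 minus replicate 1 difference was 1.83 at 0 h, -0.01 at 2 h, -0.22 at 4 h, 0.95 at 8 h and 1.88 at 24 h.

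**Figure D4:**
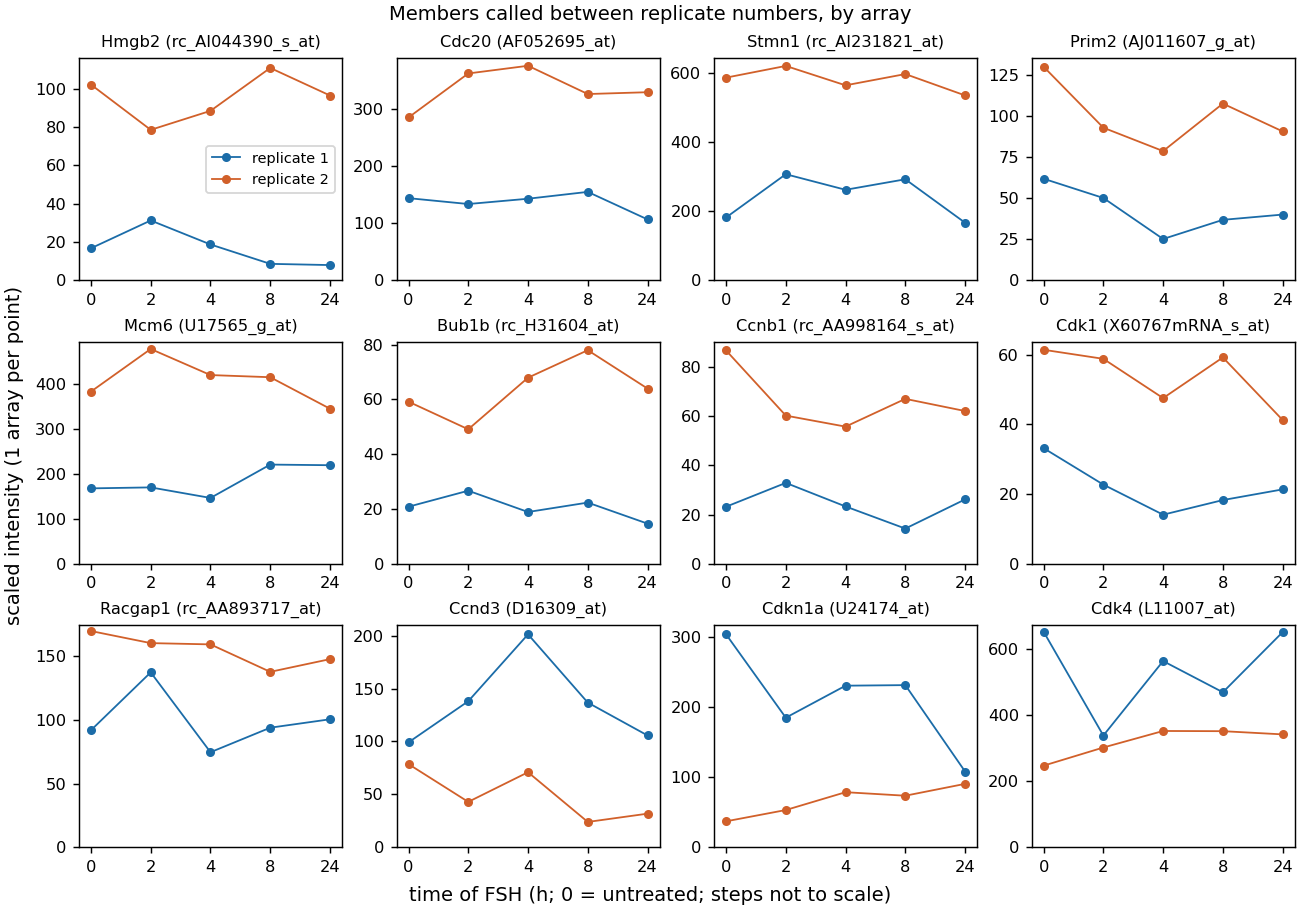
Scaled intensity (y axis, from 0, 1 array per point) by time of FSH (x axis, steps not to scale) for the 12 members called between replicate numbers, 1 probe set each, with replicate 1 in blue and replicate 2 in orange. The 9 members called higher in replicate 2 lie above replicate 1 at every time, Ccnd3, Cdkn1a and Cdk4 lie below it, and the Cdkn1a lines come close at 24 h. The probe sets of Hmgb2, Bub1b, Cdk1 and Ccnb1 passed the filter only through replicate 2.

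Among the replication genes, Mcm6, a subunit of the Mcm helicase, was called with all 3 probe sets. U17565_g_at read 167.7, 169.9, 146.4, 220.7 and 219.3 in replicate 1 and 383.3, 478.2, 420.1, 415.3 and 345.1 in replicate 2. The groups did not overlap. Its difference was 1.15 ± 0.19 (SE, limma adjusted p = 0.00415), and those of U17565_at and rc_AI639082_s_at were both 0.83, with adjusted p of 0.0161 and 0.0103. Mcm5 (0.78, adjusted p = 0.0664 in limma) and Mcm7 (0.52, adjusted p = 0.099), other subunits of the helicase, were not called.

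Prim2 was called with both probe sets. AJ011607_g_at read 61.89, 50.15, 25.14, 36.82 and 40.03 in replicate 1 and 130.2, 93, 78.75, 107.7 and 90.75 in replicate 2. AJ011607_at read 47.26, 57.09, 61.58, 41.62 and 50.58 in replicate 1 and 151.3, 118.3, 68.74, 127.8 and 116.5 in replicate 2. Neither probe set's groups overlapped, with differences of 1.27 ± 0.21 (SE, limma adjusted p = 0.00415) and 1.14 ± 0.25 (SE, adjusted p = 0.0143). The small primase subunit Prim1 was at 0.15 and 0.03 in its 2 probe sets and was not called. Pcna, Pola2, Fen1 and Dut, which removes dUTP, were not called either.

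Of the cyclins, Ccnb1, which drives mitosis with Cdk1, was called with 1 of 2 probe sets. rc_AA998164_s_at read 23.19, 32.9, 23.3, 14.29 and 26.17 in replicate 1 and 86.84, 60.3, 55.81, 67.12 and 62.16 in replicate 2. The groups did not overlap and the difference was 1.504 ± 0.28 (SE, limma adjusted p = 0.00828). The other, X64589_at, was at 0.63 (adjusted p = 0.058).

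Ccnd3 was called lower in replicate 2 with 1 of its 3 probe sets. D16309_at read 99.17, 138.1, 201.4, 136.8 and 105.7 in replicate 1 and 78.57, 42.82, 70.88, 23.82 and 31.66 in replicate 2. All replicate 2 arrays were lower, and the difference was -1.56 ± 0.28 (SE, limma adjusted p = 0.00737, and 0.0967 with dim probe sets kept). The other 2 probe sets were at -0.34 and -0.87 and were not called, so the probe sets of this gene differ in size.

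Cdk1, the kinase of mitosis, read 33.17, 22.7, 14.06, 18.26 and 21.33 in replicate 1 and 61.42, 58.82, 47.54, 59.22 and 41.25 in replicate 2. The groups did not overlap, and the difference was 1.33 ± 0.28 (SE, limma adjusted p = 0.0125). Cdk4, partner of the D-type cyclins, read 651.5, 337.4, 562.6, 468.3 and 650.1 in replicate 1 and 246.3, 301.2, 351.2, 350.6 and 340.9 in replicate 2. Its difference of -0.72 ± 0.21 (SE, limma adjusted p = 0.0427) stood close to the threshold, and the 2 h array of replicate 1 lay within the range of replicate 2.

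The other kinases were not called between the replicate numbers. Cdk7, which activates the other cell cycle kinases, was at 0.45 ± 0.20 (SE, limma adjusted p = 0.154), higher in replicate 2 at 5 of 5 times. Cdk2 was at -0.44 and -0.57 in its 2 probe sets, Cdk5 at -0.18, and Cdc25b, the phosphatase that switches cyclin-dependent kinases on, at 0.14. For Cdc25b 2 further probe sets were too dim to be tested. Ccnd1, Ccnd2, Ccne1 and Ccng1 were not called either, with differences from -0.43 for Ccng1 to 0.91 for Ccnd1 probe set rc_AA957218_at (limma adjusted p = 0.0556).

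The inhibitor Cdkn2b, at -0.54 ± 0.32 (SE, limma adjusted p = 0.3), was not called between the replicate numbers. Cdkn1a was the only inhibitor called, lower in replicate 2 with both probe sets. U24174_at read 303.7, 184.7, 230.4, 231.2 and 107.9 in replicate 1 and 36.8, 52.93, 78.37, 73.35 and 90.27 in replicate 2. All replicate 1 arrays were above all replicate 2 arrays, and the difference was -1.66 ± 0.33 (SE, limma adjusted p = 0.00984). L41275cds_s_at, whose array values overlap between the numbers only through the 24 h array of replicate 1, differed by -1.35 ± 0.27 (SE, adjusted p = 0.0109). With dim probe sets kept in the test neither was called (limma adjusted p = 0.129 and 0.0929). The gap of U24174_at was -3.05 at 0 h, -1.80 at 2 h, -1.56 at 4 h, -1.66 at 8 h and -0.26 at 24 h. Whether the gap differed between times was not tested.

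**Figure D5:**
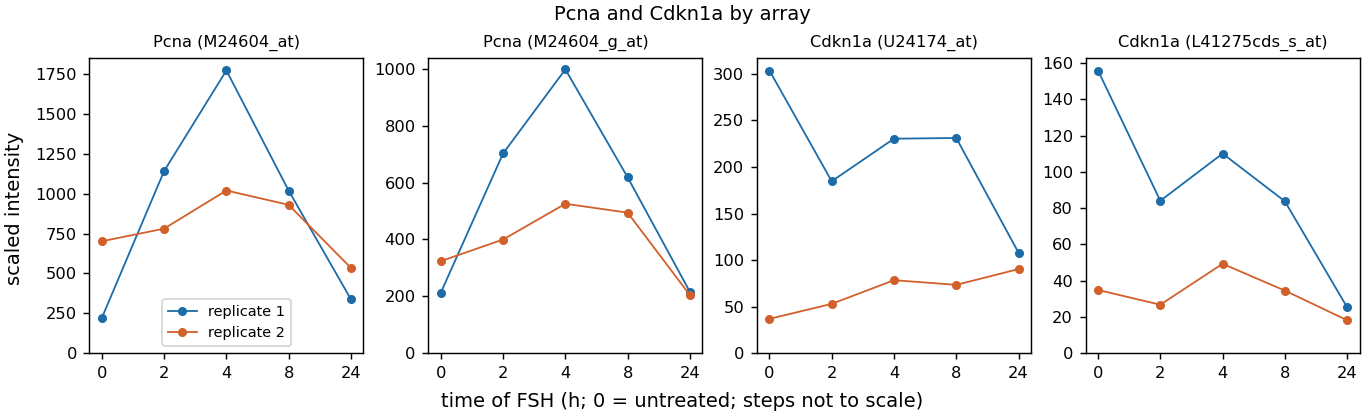
Scaled intensity (y axis, from 0, 1 array per point) of both Pcna and both Cdkn1a probe sets by time of FSH (x axis, steps not to scale), with replicate 1 in blue and replicate 2 in orange. Pcna M24604_at peaks at 4 h in both replicates (1773 and 1020), and Cdkn1a U24174_at starts far apart at 0 h (303.7 and 36.8) and lies close together at 24 h (107.9 and 90.27).

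Beside the members, 144 other cell cycle genes were looked up, of which 45 were on the array and 27 were tested with 38 probe sets. None was called against 0 h at any time by limma. Between the replicate numbers 5 of 38 probe sets (13.2%) were called higher in replicate 2 and 0 lower, against 6.53% and 8.65% of all tested probe sets. They were those of Plk4, the kinase of centriole duplication (1.95 ± 0.31, SE, limma adjusted p = 0.00392), Pttg1, securin (0.96 ± 0.16, adjusted p = 0.00447), Smc4, a condensin subunit (1.37 ± 0.35, adjusted p = 0.0284), Rfc4, of the clamp loader (0.87 ± 0.19, adjusted p = 0.016), and Rpa2, which coats single-stranded DNA (0.59 ± 0.17, adjusted p = 0.0449). Plk4 read 2.64 to 20.22 in replicate 1 and 44.58 to 87.72 in replicate 2. It passed the filter of 31.97 only through replicate 2, so it had to differ and its call is a description. The other Rfc4 probe set, rc_AA819500_at, was at 0.68 and was not called (limma adjusted p = 0.063). In the F test with the replicate block, 1 of 38 was called (2.63%, against 3.22% of all): L23148_g_at of Id1, a blocker of basic helix-loop-helix factors. It read 89.96 and 105.6 in the controls, 159 and 180.3 at 2 h, and 62.4 and 62.91 at 4 h (F test adjusted p = 0.04996 with the block and 0.142 without). The other Id1 probe set, L23148_at, differed from 0 h by 0.02 at 2 h and -0.12 at 4 h and was not called (F test adjusted p = 0.9875 with the block).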

How the data were processed

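The deposited values were intensities on a linear scale, 1 for each of 8799 probe sets on each of 10 arrays, and the processing by the authors is not given in the sources used here. The 59 control probe sets were left out. The arrays were divided by 0.909 to 1.12 to share a 75th percentile of 107.7, floored at that percentile divided by 8 and taken to log2. Probe sets with a mean of at least 31.97 over the 10 arrays were kept.

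limma 3.58.1 in R 4.3.3 was fitted to 4439 probe sets with 1 mean per group (lmFit, eBayes with an intensity trend, 5 residual degrees of freedom), and for the replicate numbers with time as covariate. Intervals are from limma. The fit was tested on simulated data.

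Same-numbered arrays deviated together: deviations from the group means correlated at 0.110 to 0.698 in all 10 pairs of times, so the replicate number was also fitted as a block.

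The members and the other gene lists were chosen with earlier results of these data known. All members are named, and array values are given for those called and for the largest change of each role. Other cell cycle genes are named where called. The number of arrays limits the precision.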

Additional observations from a re-analysis of the deposited data

How the results depend on the processing

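The counts of 0 member probe sets at every time stood under all 17 alternatives: values as deposited, quantile normalization, a higher or lower floor, no filter on dim probe sets, no intensity trend, the replicate block, and leaving out each of the 10 arrays. The count of 16 between replicate numbers was 6 without the filter, where 1.91% of 8740 probe sets were called, and ran from 10 to 17 when 1 array was left out. It was lowest, 10, without either 8 h array. With values as deposited it was 19 and the median of all probe sets moved by 0.13. In this comparison leaving out either array of a time gave the same difference, as for Cdc20 with 1.385 without either 0 h array. The fits with 1 array left out therefore come in pairs, and the 16 alternatives are not independent checks. Cdc20, Hmgb2, Stmn1, 1 of the Mcm6 probe sets (U17565_g_at) and 1 of the Prim2 probe sets (AJ011607_g_at) were called in all 16 alternatives of that comparison. Cdk4 and Racgap1 were each called in 5 of 16, and no called member reversed. The 24 h change of Pcna M24604_at reversed to -0.11 with quantile normalization, to -0.72 without control replicate 1 and to -0.22 without the 24 h replicate 2, and the cause was not tested. With 1 array left out it ran from -0.72 to 0.94. With the replicate block as the pairing the count of members called stayed at 0 at each time.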
